A study of Arabidopsis thaliana with 6 samples.

Results

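The AT-hook motif nuclear-localized (AHL) genes encode small chromatin proteins of plants. The 10 genes described are AHL15 to AHL23 and AHL27 of Arabidopsis thaliana, among them AHL21, known as GIANT KILLER (GIK). They were chosen by locus, with values of the comparison between flower domains already known, and are 10 of the 29 AHL genes and of the 33341 genes counted. RNA came from nuclei of stage 5 flowers, sorted by flow cytometry for a GFP-tagged nuclear envelope protein (NTF). There were 3 libraries labelled AP3, from plants with a pAP3:NTF(GFP) reporter (X13, X16 and X74), and 3 labelled AG, from plants with an iAG:NTF(GFP) reporter (X14, X26 and X71).

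All plants were of ecotype Ler and carried the ap1 cal mutations together with a pAP1::AP1-GR fusion, which 2 µM dexamethasone switches on so that many flowers start at once. Both domains are thus defined by a reporter, the AP3 promoter in the first and the second intron of AG with a minimal 35S promoter in the other, and inflorescences of several plants were pooled for each collection. All plants were grown at 22 °C with 16 h of light and 8 h of dark, and dexamethasone was applied daily. The labels give no replicate numbers. The p-values weigh the difference between domains against the spread between these libraries. The question of the comparison is which genes differ between the domain that forms petals and stamens and the domain that forms stamens and carpels.

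AHL proteins bind the minor groove of AT-rich DNA with a short AT-hook and contact each other and other factors through a second conserved domain, named PPC. Most act on the chromatin of their targets as repressors, and members often stand in for each other. The family has a clade A, to which all 10 chosen genes belong with AHL24, AHL25, AHL26, AHL28 and AHL29, and a clade B of AHL1 to AHL14. In the flower, GIK is known as a direct target of the homeotic factor AGAMOUS (AG) and as a repressor of carpel and meristem genes. AHL15 delays the ageing of axillary meristems, and AHL16, known as TEK, silences transposons and serves pollen wall formation in the tapetum.

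The AT-hook is shown for the 4 members with enough reads to be compared, for GIK and for AHL16. Each stretch is 36 bases of the coding strand from the TAIR10.1 assembly, which has the gene ends of the count files, and the capitals mark the 12 bases that encode the arginine, glycine, arginine and proline of the AT-hook core. All lie in coding exons.
AHL15 (chr3:20605543-20605578, minus strand): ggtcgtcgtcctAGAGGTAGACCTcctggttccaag
AHL17 (chr5:20192761-20192796, plus strand): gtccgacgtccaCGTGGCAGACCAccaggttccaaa
AHL18 (chr3:22493375-22493410, plus strand): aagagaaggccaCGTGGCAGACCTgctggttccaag
AHL23 (chr4:9896152-9896187, minus strand): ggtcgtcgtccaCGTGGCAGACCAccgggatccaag
AHL21, GIK (chr2:14857249-14857284, plus strand): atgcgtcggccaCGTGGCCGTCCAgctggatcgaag
AHL16, TEK (chr2:17863082-17863117, minus strand): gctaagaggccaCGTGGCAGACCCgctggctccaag
The core occurred exactly 1 time in the coding sequence of each of the 10 chosen genes and of the other 5 clade A genes, whereas 7 of the 14 clade B genes encoded 2. The chosen genes encoded 257 to 317 amino acids, and 9 of the 10 consisted of 1 exon, with AHL15 as the exception at 2. None of the 14 clade B genes had 1 exon, so that reads from introns could enter their counts but hardly those of the chosen genes. The closest pair among the chosen genes was GIK and AHL23, with 69.8% identical bases over the aligned coding sequences, gaps included.

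The libraries held 28808948 to 42089156 counts, of which 2.39% to 4.56% fell on organelle genes, and replicates differed by more than counting error (a chi-square of 41.6 to 190.3 for each degree of freedom). X74 and X71 stood apart, with a read on 26717 and 26489 genes against 22923 to 23439 in the other libraries. Counts were scaled to CPM, the reads of a gene per 1000000 counts of the library after adjustment with TMM factors. Of 20013 genes tested with edgeR's quasi-likelihood test, 7.76% were called at an adjusted p under 0.05, 1.36% higher and 6.4% lower in AP3, while 19.7% had an unadjusted p under 0.05 and DESeq2 called 12.2%. The median log2 fold change (AP3 over AG) of all genes was 0.03. AP3 RNA, which marks the sorted domain, was called higher in the libraries labelled AP3 (log2 fold change 2.36, standard error 0.50, adjusted p = 0.0216 from edgeR). AG RNA was not higher in those labelled AG. It was higher in every AP3 library than in every AG library, though not called (log2 fold change 1.17, standard error 0.41, adjusted p = 0.141 from edgeR). Domains are therefore named by their labels throughout. Of the 28 vascular markers tested (phloem, xylem and procambium), 19 were called lower and 0 higher in AP3, with a median log2 fold change of -2.8. Their summed level was 528 to 604 CPM in AP3 and 1092 to 1233 CPM in AG, of which LHW, a procambium gene, made up 191 CPM in AP3 and 196 CPM in AG on average. Of 5 epidermal markers, 2 (ATML1 and PDF1) were called higher in AP3, with a median log2 fold change of 1.09, and the sum of all 5 was 3755 to 4853 CPM in AP3 and 1047 to 2267 CPM in AG. Of 6 markers of dividing cells, 1 (CYCB1;1) was called higher, with sums of 4798 to 4920 CPM in AP3 and 2894 to 3699 CPM in AG. The calls of AP3 RNA, ATML1, PDF1 and CYCB1;1 were not kept in all alternatives. Their adjusted p from edgeR or DESeq2 reached 0.180, 0.134, 0.111 and 0.0828. Some vascular calls were also lost, such as CALS7 (up to 0.145). No marker of these 5 lists was at 0 in all libraries. These cell type levels moved with the domain in the same libraries as the AHL values below, and their part in them was not tested. In sorted bulk nuclei, fewer nuclei that express a gene and less RNA per nucleus cannot be told apart.

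Only a few of the chosen AHL genes were measurably expressed at stage 5, and those with the highest levels, AHL15 and AHL17, were higher in AP3 than in AG. AHL23 and AHL18 were present at a few CPM or less. AHL19, AHL20, AHL22, AHL27 and GIK had few or no reads in either domain, and AHL16 could not be counted. The filter of more than 10 reads in at least 2 libraries was passed by 4 of the 10 genes, AHL15, AHL17, AHL18 and AHL23.

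**Figure D1:**
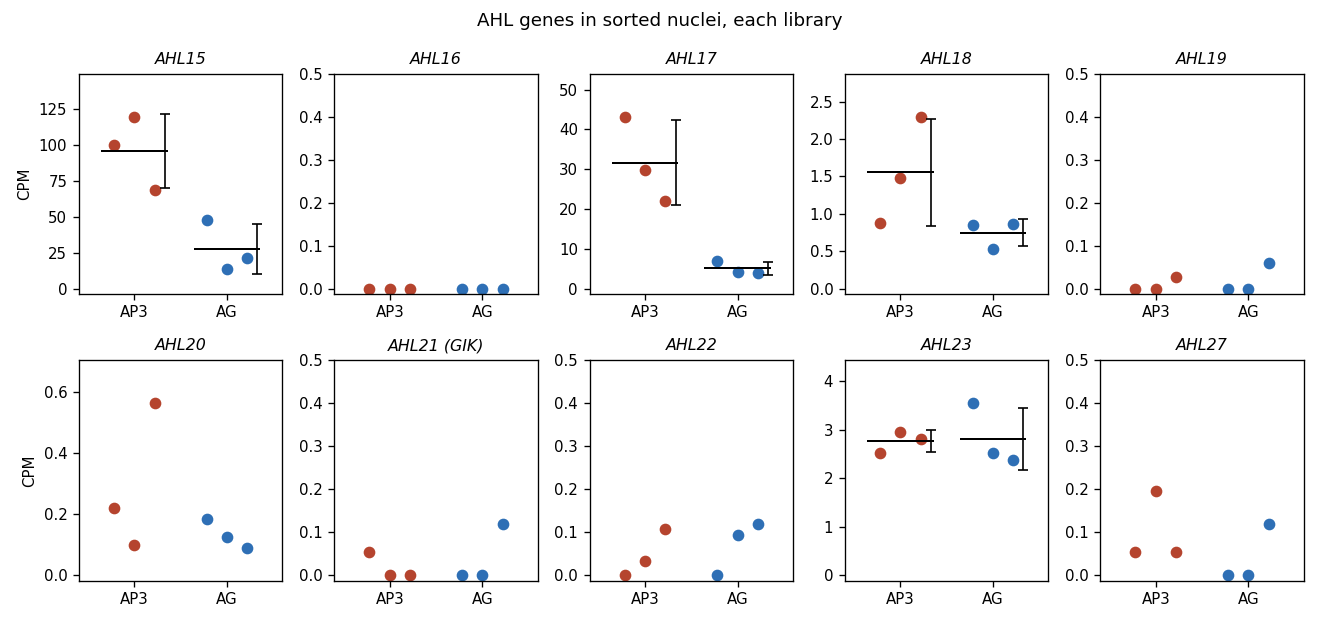
Level of each of the 10 AHL genes in CPM (linear axes that differ between panels), with 1 point per library, AP3 libraries in red on the left and AG libraries in blue on the right. Black lines and bars give the mean and SD of 3 libraries for genes past the read filter. AHL15 and AHL17 sit higher in all AP3 libraries, AHL23 overlaps, and GIK stays at 0.119 CPM or below.

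AHL15 (AT3G55560, chromosome 3, 20604616 to 20606650, minus strand) was the most abundant of the chosen genes. It reached 99.8 CPM in X13, 119.9 CPM in X16 and 68.5 CPM in X74 in AP3, against 47.5 CPM in X14, 13.9 CPM in X26 and 21.5 CPM in X71 in AG. Every AP3 library was thus above every AG library, and the AG libraries spread over the wider fold range, with X14 the highest of them. The means were 96.1 ± 25.9 CPM in AP3 and 27.6 ± 17.6 CPM in AG (SD, n = 3 each), a ratio of 3.48. The fitted log2 fold change was 1.80 (standard error 0.42). The libraries that stand apart, X74 over X71, gave a log2 ratio of 1.67, and the 4 others a fitted log2 fold change of 1.84.

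AHL17 (AT5G49700, chromosome 5, 20192159 to 20193800, plus strand) had the largest fold between domains of the chosen genes that passed the filter. It stood at 43.2 CPM in X13, 29.8 CPM in X16 and 22.0 CPM in X74 in AP3, against 7.01 CPM in X14, 4.28 CPM in X26 and 3.88 CPM in X71 in AG. The lowest AP3 library was thus well above the highest AG library. The means were 31.7 ± 10.7 CPM in AP3 and 5.06 ± 1.70 CPM in AG (SD, n = 3 each), a ratio of 6.26, and the fitted log2 fold change was 2.65 (standard error 0.33). X74 over X71 gave a log2 ratio of 2.50 and the 4 other libraries a fitted log2 fold change of 2.69. The first 349 bases of AHL17 overlap AT5G00615, a gene on the opposite strand with 0 to 3 counts per library. Reads in that stretch belong to both genes and the counting ignored strand, so that the level of AHL17 may be understated in both domains.

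AHL18 (AT3G60870, chromosome 3, 22492811 to 22494253, plus strand), which acts in root growth, was low. It had 0.878 CPM in X13, 1.48 CPM in X16 and 2.30 CPM in X74 in AP3, against 0.848 CPM in X14, 0.535 CPM in X26 and 0.859 CPM in X71 in AG, or 32 to 86 and 17 to 29 counts. The domains did not overlap by a narrow margin, since X13 lay just above X71, and with library totals in place of TMM factors they overlapped. The log2 fold change was 1.05 (standard error 0.54), and 0.76 without X74 and X71. AHL23 (AT4G17800, chromosome 4, 9895094 to 9896688, minus strand), the closest relative of GIK among the chosen genes, had 2.52 CPM in X13, 2.96 CPM in X16 and 2.81 CPM in X74 in AP3, against 3.54 CPM in X14, 2.52 CPM in X26 and 2.37 CPM in X71 in AG. Its domains overlapped, and its log2 fold change was -0.02 (standard error 0.36).

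Of the 4 genes past the filter, edgeR called 2, AHL15 and AHL17, both higher in AP3, beside 1.36% of all genes called higher. In 3 of the 4 (AHL15, AHL17 and AHL18) every AP3 library was above every AG library, beside 10.9% of all genes tested. Since the genes were chosen with this comparison known, these counts are a description. The 15 other fits reuse the same libraries, so calls in them are also a description and no further support. AHL17 was called in all 15. AHL15 was called in 10 of 15, and was not called without X13, X16, X26 or X71, or with the 4 libraries X13, X16, X14 and X26 tested by edgeR.

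GIK (AT2G35270, chromosome 2, 14856664 to 14858134, plus strand) was at the limit of detection in both domains. It had 2 counts in X13 and 0 in X16 and X74 in AP3, against 4 counts in X71 and 0 in X14 and X26 in AG. Over the summed libraries, scaled by nuclear counts without TMM factors, this was 0.0188 CPM in AP3 (95% exact Poisson interval 0.00227 to 0.0678) and 0.0441 CPM in AG (0.0120 to 0.113). The intervals overlap and cover counting error only, and a difference was not detectable at this depth. No other gene overlaps GIK in the annotation used for counting, and it did not pass the filter.

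The remaining chosen genes were similarly scarce. AHL20 (AT4G14465), an attenuator of immune responses, had 8, 3 and 21 counts in X13, X16 and X74 in AP3, against 5, 4 and 3 counts in X14, X26 and X71 in AG. X74 alone held most of its AP3 counts, and the summed levels, also without TMM factors, were 0.300 CPM (0.205 to 0.424) in AP3 and 0.132 CPM (0.0684 to 0.231) in AG. AHL27 (AT1G20900), known as ESCAROLA, which restrains hypocotyl growth in seedlings, had 2, 6 and 2 counts in X13, X16 and X74 in AP3, against 0, 0 and 4 counts in X14, X26 and X71 in AG. AHL22 (AT2G45430), a repressor of the flowering signal FT, had 0, 1 and 4 counts in X13, X16 and X74 in AP3, against 0, 3 and 4 counts in X14, X26 and X71 in AG. AHL19 (AT3G04570), which acts in the response to Verticillium wilt, had 1 count in AP3 (X74) and 2 counts in AG (X71). In all of these the libraries of both domains overlapped, and no fold change is given.

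AHL16 (AT2G42940, chromosome 2, 17862254 to 17863456, minus strand) had 0 counts in every library, but its level was not measured. All of its 1203 bases lie inside AT2G42920 (chromosome 2, 17858655 to 17863466) on the opposite strand, and reads that fall on more than 1 gene were not assigned to either. Of 2050 nuclear genes that lie wholly inside another gene of the annotation, 2050 had 0 counts in all 6 libraries, against 7.38% of the 31006 others. AT2G42920 itself had 1498 to 2921 counts in AP3 and 1332 to 2293 counts in AG.

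Levels of different AHL genes were compared in CPM per kb of gene length. This length included introns, which all 14 clade B genes have, and bases shared with other genes, where reads were not assigned. The levels of AHL9, AHL10 and AHL11, with 607, 504 and 3010 shared bases, may thus be understated. Ranks of the chosen genes against clade B genes depend on this measure. In AP3, AHL15 stood at 47.2 ± 12.7 CPM per kb (SD, n = 3), the rank 5 level of the 29 AHL genes, and its range overlapped those of its neighbours AHL9 and AHL11. In AG it stood at 13.6 ± 8.65 CPM per kb (SD, n = 3), at rank 8, between AHL13 and AHL14, whose ranges it also overlapped. AHL17 was at 19.3 ± 6.54 CPM per kb in AP3 (rank 8) and 3.08 ± 1.04 CPM per kb in AG (rank 16). It overlapped AHL2 and AHL13 around it in AP3, and in AG it overlapped AHL6 above it but lay apart from AHL23 below it. AHL23 had 1.73 ± 0.138 CPM per kb in AP3 (rank 18) and 1.76 ± 0.400 CPM per kb in AG (rank 17), and AHL18 had 1.08 ± 0.495 CPM per kb in AP3 (rank 19) and 0.518 ± 0.128 CPM per kb in AG (rank 21). The top rank in both domains was held by AHL10 of clade B, at 110.2 ± 1.34 CPM per kb in AP3 and 158.2 ± 9.17 CPM per kb in AG. In AP3, 2 of the 10 highest levels belonged to the chosen genes, AHL15 and AHL17.

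**Figure D2:**
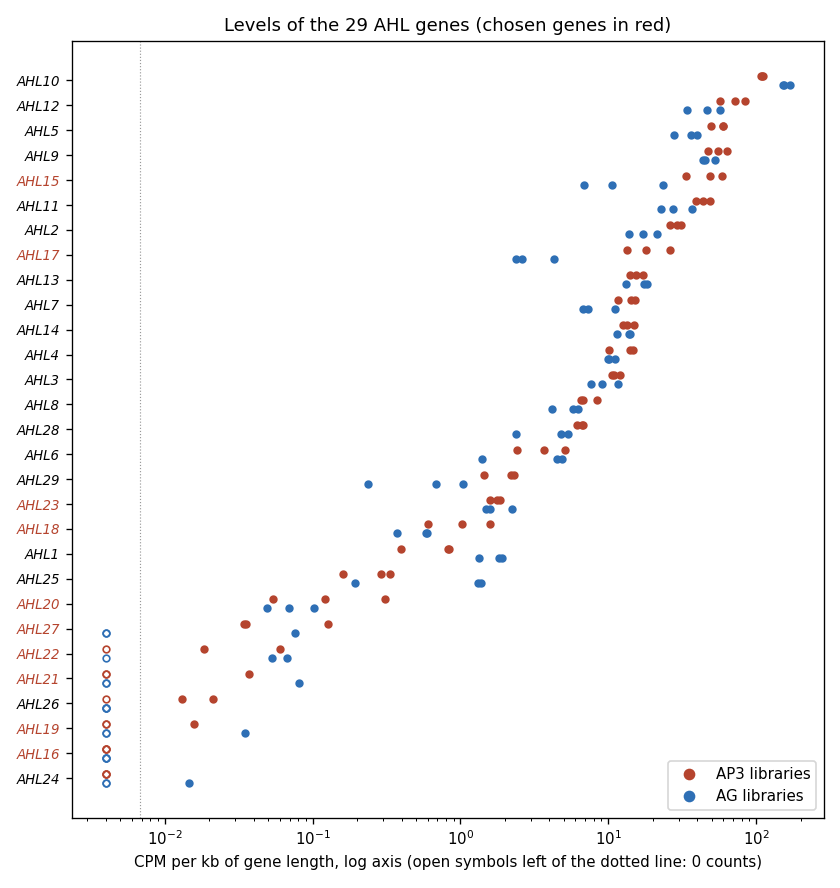
Level of the 29 AHL genes in CPM per kb of gene length (log axis), ordered by the AP3 mean, with 1 point per library, AP3 in red and AG in blue. The chosen genes have red names, open symbols mark 0 counts, and AHL15 and AHL17 are the only chosen genes among the 10 highest AP3 levels.

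Of the counts of all 15 clade A genes, AHL15 and AHL17 together took 91.6%, 90.1% and 83.8% in X13, X16 and X74 in AP3, against 81.0%, 69.3% and 68.5% in X14, X26 and X71 in AG. The share of AHL17 alone was 17.9% to 27.7% in AP3 and 10.4% to 16.3% in AG and did not overlap. AHL15 took 63.4% to 72.2% in AP3 and 53.0% to 70.6% in AG, which overlapped. AHL23, whose level hardly differed, took 1.62% to 2.60% in AP3 and 5.26% to 9.59% in AG. Shares of a total are tied to each other, and the total of clade A was 4036 to 5685 counts in AP3 and 834 to 1824 counts in AG.

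The other AHL genes showed smaller differences or wider errors. Of the other 5 clade A genes, 3 passed the filter and 0 were called by edgeR, with 2 at an unadjusted p under 0.05 and 1 (AHL29) called by DESeq2, beside 19.7% and 12.2% of all genes. AHL29, known as SOB3, a repressor of hypocotyl growth, had 2.50, 4.01 and 3.80 CPM in X13, X16 and X74 in AP3, against 1.18, 0.409 and 1.81 CPM in X14, X26 and X71 in AG, without overlap (log2 fold change 1.6, standard error 0.56, adjusted p = 0.137 from edgeR, between 0.0373 and 0.324 over the alternatives). AHL28, the closest relative of AHL17 with 68.2% identical coding bases, was at 7.08 ± 0.379 CPM in AP3 and 4.53 ± 1.72 CPM in AG (SD, n = 3 each; log2 fold change 0.64, standard error 0.35, adjusted p = 0.375 from edgeR). AHL25, which binds the promoter of the gibberellin gene GA3OX1, had 0.220, 0.394 and 0.455 CPM in X13, X16 and X74 in AP3, against 1.88, 1.79 and 0.267 CPM in X14, X26 and X71 in AG. X71 lay within the AP3 range, unlike X14 and X26 (log2 fold change -1.87, standard error 0.77, adjusted p = 0.213 from edgeR, between 0.0251 and 0.459 over the alternatives). AHL24 and AHL26 had 0 to 2 counts in every library.

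All 14 clade B genes passed the filter and 0 were called by edgeR, with 7 at an unadjusted p under 0.05 and 5 (AHL1, AHL2, AHL5, AHL7 and AHL10) called by DESeq2, beside the same shares of all genes. Their log2 fold changes ran from -1.30 (AHL1) to 0.72 (AHL2) with a median of 0.28. AHL10 was lower in all AP3 libraries, with 311 to 319 CPM in AP3 and 434 to 482 CPM in AG (log2 fold change -0.52, standard error 0.18, adjusted p = 0.122 from edgeR, between 0.0113 and 0.361 over the alternatives). AHL3 and AHL4, which set the border between xylem and procambium in roots, had log2 fold changes of 0.24 and 0.32 and overlapping domains. Among the alternatives, edgeR called AHL2 and AHL5 with no filter beyond 1 read (adjusted p = 0.0320 and 0.0438), and AHL2 and AHL7 without X14 (0.0479 and 0.0413). AHL11 shares 3010 of its 5541 bases with a gene on the opposite strand, and its level is less certain.

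**Figure D3:**
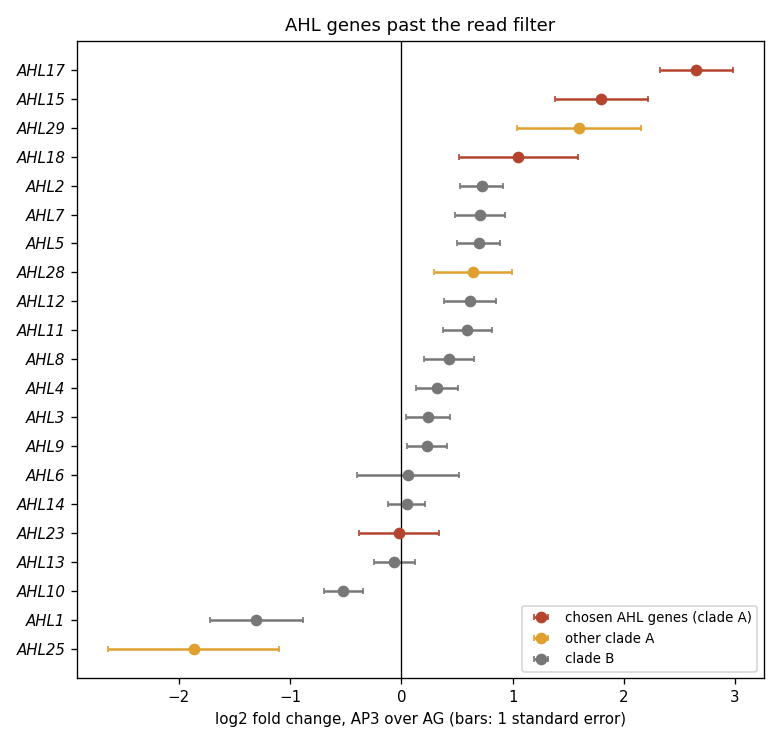
Log2 fold change (AP3 over AG, horizontal axis) of the 21 AHL genes past the read filter, with 1 standard error. Chosen genes are red, other clade A genes yellow and clade B genes grey, and values run from -1.87 for AHL25 to 2.65 for AHL17.

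The lists of regulators, targets and partners here and below were written with earlier results of these data known, which their adjusted p do not take into account. Of AG, the upstream factor of GIK, and of the reported GIK targets ETT, CRC, JAG and KNU, 1 was called higher (JAG) and 0 lower in AP3 by edgeR, beside 1.36% and 6.4% of all genes. The median log2 fold change was 0.46, and DESeq2 called 3, AG, ETT and JAG, beside 12.2% of all genes. JAG, which promotes the growth of lateral organs, had 49.1, 53.2 and 41.6 CPM in X13, X16 and X74 in AP3, against 16.9, 3.74 and 7.67 CPM in X14, X26 and X71 in AG. It rose in AP3 by a log2 fold change of 2.35 (standard error 0.46, adjusted p = 0.0149 from edgeR). The call was lost without X16 (0.0512) or X71 (0.0604) and in the 4 libraries (0.0645), over a range of adjusted p from edgeR or DESeq2 of 8.93e-07 to 0.0645.

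ETT, an auxin response factor that patterns the carpel, was at 183 ± 21.7 CPM in AP3 and 295 ± 34.1 CPM in AG (SD, n = 3 each), lower in all AP3 libraries (log2 fold change -0.69, standard error 0.19, adjusted p = 0.0583 from edgeR, between 0.00435 and 0.217 over the alternatives). AG itself had 41.5, 75.4 and 94.3 CPM in X13, X16 and X74 in AP3, against 38.4, 14.2 and 41.2 CPM in X14, X26 and X71 in AG (log2 fold change 1.17, standard error 0.41, adjusted p = 0.141 from edgeR, between 0.0289 and 0.287 over the alternatives). AG RNA was thus higher in every AP3 library than in every AG library, with X13 just above X71. A link between AG RNA and the 0 to 4 counts of GIK per library was not tested. CRC, a carpel gene, overlapped between domains at 7.60 to 19.7 CPM in AP3 and 1.38 to 12.8 CPM in AG. KNU, which ends the floral meristem, had 2 to 13 counts in AP3 and 1 to 12 counts in AG.

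SOC1 and FUL, MADS factors known to repress AHL15, were both called lower in AP3. A link between their levels and that of AHL15 was not tested. SOC1 had 68.6, 89.1 and 99.6 CPM in X13, X16 and X74 in AP3, against 171, 188 and 197 CPM in X14, X26 and X71 in AG (log2 fold change -1.11, standard error 0.19, adjusted p = 0.00847 from edgeR, between 4.52e-06 and 0.0484 over the alternatives). FUL had 68.8, 63.7 and 79.9 CPM in X13, X16 and X74 in AP3, against 133, 139 and 143 CPM in X14, X26 and X71 in AG (log2 fold change -0.97, standard error 0.16, adjusted p = 0.00778 from edgeR). The call of FUL was lost without X16 (0.0560, over a range of 3.42e-06 to 0.0560 from edgeR or DESeq2). The domains of both genes were well apart, while 6.4% of all genes were called lower in AP3.

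**Figure D4:**
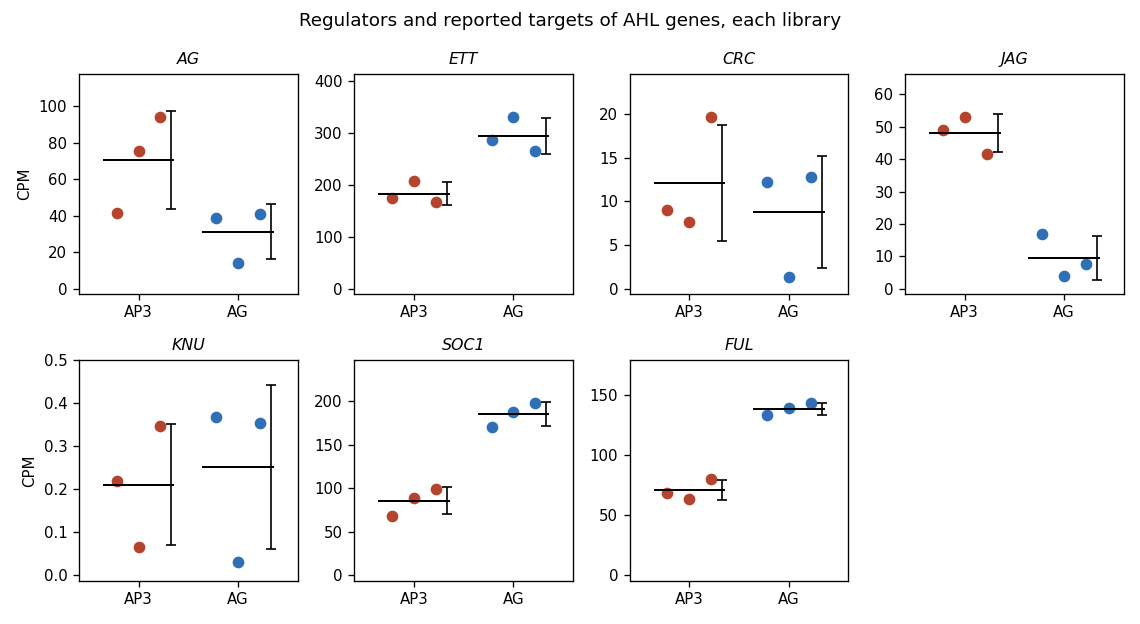
Level in CPM (linear axes that differ between panels) of AG, of the reported GIK targets ETT, CRC, JAG and KNU, and of the AHL15 repressors SOC1 and FUL, with 1 point per library, AP3 in red on the left and AG in blue on the right, and the mean and SD of 3 libraries. JAG and AG lie higher, AG by a narrow margin, and ETT, SOC1 and FUL lie lower in all AP3 libraries.

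Other genes reported downstream or as partners of AHL proteins varied in both directions. Of 5 gibberellin synthesis genes, 3 passed the filter, with a median log2 fold change of -0.49. Beside 6.4% of all genes called lower in AP3, 1 of these 3 was called lower. This was GA20OX1, at 3.88 ± 0.897 CPM in AP3 and 16.7 ± 4.21 CPM in AG (SD, n = 3 each; log2 fold change -2.10, standard error 0.30, adjusted p = 0.00360 from edgeR). GA3OX1, whose feedback regulation gave AHL15 and AHL25 their other names AGF2 and AGF1, was at 3.12 to 5.99 CPM in AP3 and 4.37 to 6.71 CPM in AG, with overlap (adjusted p = 0.545 from edgeR). The flowering signal FT, a target of AHL22, had 0.0824, 0.0986 and 0.455 CPM in X13, X16 and X74 in AP3, against 2.29, 2.23 and 4.74 CPM in X14, X26 and X71 in AG. It was called lower in AP3 (log2 fold change -3.82, standard error 0.74, adjusted p = 0.0149 from edgeR), a call lost without X16 (0.0690, over a range of 3.43e-06 to 0.0690). FT is made in phloem companion cells. Of the 11 phloem markers tested, 8 were called lower in AP3, beside 6.4% of all genes, with a median log2 fold change of -2.77. The log2 fold changes of these 11 ran from -4.42 (PP2-A1) to 0.83 (BRX). SUC2, a sucrose carrier of companion cells, was at -3.90 and APL, which sets phloem identity, at -3.86. SMXL5 (-0.66), OPS (-0.57) and BRX were not called, and BRX was higher in every AP3 library. The phloem markers summed to 177 to 230 CPM in AP3 and 324 to 407 CPM in AG, and their part in the value of FT was not tested. FLC, a target of AHL16, lies wholly inside another annotated gene and could not be counted, and FWA did not pass the filter.

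Of 10 genes of the growth module in which AHL27 and AHL29 act in seedlings (PIF, TCP and YUC genes), 8 passed the filter, 1 was called higher (TCP4) and 1 lower (TCP14) in AP3, beside 1.36% and 6.4% of all genes. The median log2 fold change was -1.1, against 0.03 for all genes tested. DESeq2 called 5, beside 12.2% of all genes, adding PIF3, PIF4 and PIF5, all lower in AP3. PIF4, a growth factor of seedlings under the control of light and warmth, had 1.10, 1.61 and 5.54 CPM in X13, X16 and X74 in AP3, against 10.99, 13.1 and 10.6 CPM in X14, X26 and X71 in AG. Its domains did not overlap (log2 fold change -2.07, standard error 0.55, adjusted p = 0.0551 from edgeR, between 3.17e-11 and 0.190 over the alternatives). PIF5 and PIF3 had log2 fold changes of -1.65 and -0.84 (adjusted p = 0.0786 and 0.103 from edgeR). TCP4, which drives cell differentiation, had 42.1, 50.8 and 45.1 CPM in X13, X16 and X74 in AP3, against 26.2, 15.0 and 16.6 CPM in X14, X26 and X71 in AG (log2 fold change 1.26, standard error 0.23, adjusted p = 0.0126 from edgeR). The call of TCP4 was lost without X16 (0.0550) or X71 (0.05005) and in the 4 libraries (0.0723), over a range of adjusted p of 2.92e-05 to 0.0723 from edgeR or DESeq2. TCP14 had 34.1, 32.3 and 21.1 CPM in X13, X16 and X74 in AP3, against 73.3, 90.8 and 58.8 CPM in X14, X26 and X71 in AG (log2 fold change -1.35, standard error 0.24, adjusted p = 0.00976 from edgeR). Of 5 tapetum and pollen wall genes, with which AHL16 acts later in the anther, 3 passed the filter and 0 were called by edgeR or DESeq2. Their median log2 fold change was -0.49, and 1 had an unadjusted p under 0.05 from edgeR, beside 19.7% of all genes.

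The sequences in front of AHL15 and AHL17 are shown because these were the members that differed between domains. Each is the 250 bases before the annotated gene start, on the strand of the gene, from the TAIR10.1 assembly.
AHL15 (chr3:20606651-20606900, minus strand): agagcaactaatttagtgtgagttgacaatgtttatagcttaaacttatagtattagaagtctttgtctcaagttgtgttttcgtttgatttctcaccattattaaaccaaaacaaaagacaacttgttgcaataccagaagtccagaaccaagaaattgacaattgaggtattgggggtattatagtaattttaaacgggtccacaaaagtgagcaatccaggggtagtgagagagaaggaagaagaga
AHL17 (chr5:20191909-20192158, plus strand): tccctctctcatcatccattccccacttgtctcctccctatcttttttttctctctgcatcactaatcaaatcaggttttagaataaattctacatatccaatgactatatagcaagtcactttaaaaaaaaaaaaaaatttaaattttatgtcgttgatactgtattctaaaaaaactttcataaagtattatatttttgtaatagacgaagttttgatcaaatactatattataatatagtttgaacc
Of these bases, 64.8% were A or T before AHL15 and 73.2% before AHL17, against 59.6% to 72.0% for the other 8 chosen genes. The window of AHL17 lies inside AT5G00615, the gene on the opposite strand. The CArG box, the motif of MADS factors such as AG, SOC1 and FUL, was searched only in its exact form, CC and GG around bases that are all A or T. Neither it nor AATATATT, an AT-rich motif bound by AHL proteins, was found on either strand in the 250 bases of any of the 10 chosen genes. Variants of the box and sites outside this window were not searched. Over 27443 protein-coding genes, 2.52% held a CArG box and 4.19% held AATATATT in this window.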

How the data were processed

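Nuclear RNA was amplified with the SMART-Seq v4 kit, and libraries were read as pairs. Per the labels and methods, the authors trimmed reads, mapped them to TAIR10 with STAR 2.7.0b keeping unique hits, and deposited raw counts of read pairs per whole gene, so that introns count too, and with strand ignored (featureCounts 1.6.0 per the file headers). The authors also deposited variance stabilized values on a log2-like scale from DESeq2 1.24.0 for 4 libraries (18761 genes), used here only as an alternative. Organelle genes (285) did not enter, and the 20013 genes that exceeded 10 reads in 2 or more libraries were tested with edgeR 4.0.16 (R 4.3.3), TMM factors, no block and Benjamini-Hochberg adjustment over all of them. Standard errors were obtained from the F statistic (size of the log2 fold change over the root of F). DESeq2 1.42.0, other scalings and filters, 4 libraries, a term for the set of X74 and X71 and leaving out each library were alternatives. On simulated counts of 19775 genes, edgeR recovered 157 of 198 genes changed by a log2 fold change of 2, with 15 false calls. DESeq2 recovered 172 of them with 49 false calls. The simulated counts used the spread estimated by edgeR and left out the difference of X74 and X71 from the other libraries. They therefore cannot rank the tools on these data, and calls by either tool alone are less certain. The chosen genes and all lists were picked with earlier results of these data known. The chosen genes were therefore given no p, and the adjusted p of listed genes do not account for that choice. The genes named are all AHL genes and the listed partners. The rule also asked for the genes most like GIK, which named none, as GIK did not pass the filter. RefSeq TAIR10.1 gave sequences and symbols, with identical ends for 33055 of the 33056 genes matched.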

Additional observations from a re-analysis of the deposited data

How the results depend on the processing

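AHL15 kept its direction in 16 alternatives (log2 fold change 1.48 to 2.42), and AHL17 likewise (1.83 to 2.93, the lowest from the deposited variance stabilized values). AHL18 ran from 0.18, in those values, to 1.35, and AHL23 lay between -0.15 and 0.16. The 1554 genes called by edgeR became 2435 with DESeq2 (588 of them higher in AP3, against 273) and 1022 in the 4 libraries of the deposited table (75 higher), where fewer libraries entered. Leaving out 1 library gave 737 (X16) to 1480 (X74) calls, with 953 without X13 and 981 without X71. With no filter beyond 1 read, 444 genes were called higher. The 7 calls among the other AHL and listed genes became 18 with DESeq2, 13 without the filter and 11 with DESeq2 on the 4 libraries, a fit chosen after seeing the data, and 3 (without X16) to 10 (without X14) with 1 library left out. Without division by length, 1 chosen gene was among the 10 highest AHL levels in AP3. Sign changes touched only genes that were not called. AHL14 was at -0.0096 with library totals, and in the 4 libraries AHL6 was at -0.026, AHL13 at 0.027 and PIF1 at -0.40 with edgeR, and at -0.013, 0.034 and -0.39 with DESeq2. With 1 library left out, AHL14 ran from -0.042 to 0.0997, AHL6 from -0.32 to 0.33, AHL13 from -0.20 to 0.0226, PIF1 from -0.37 to 0.42, KNU from -0.75 to 0.18, CRC from -0.0838 to 0.84 and AGP6 from -0.39 to 0.0928. The causes were not tested. No paired analysis was possible because the labels give no replicate numbers. A term in edgeR for the set of X74 and X71, also chosen after seeing the data, gave 1781 calls and 9 among the listed genes, with AHL15 at 1.78, AHL17 at 2.63, ETT and PIF4 newly called (adjusted p = 0.0457 and 0.0198) and PIF1 at -0.0016. Depth limits GIK, AHL19, AHL22 and AHL27, at 0 to 6 counts per library, and overlap in the annotation limits AHL16 and AHL17.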

Other observations

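Because GIK could not be used, the genes most like AHL15 and AHL17 were looked up after their values had been seen, by the Euclidean distance between log2 CPM values centred on each gene's mean over the 6 libraries, among the 14369 genes whose mean log2 CPM reached 3. The closest to AHL15 were AT5G65590 (distance 0.33), WAG1, a kinase of auxin transport (0.43), AT4G29030 (0.54), AT1G68780 (0.56) and AT1G02190 (0.61). WAG1 had 17.4, 17.9 and 10.9 CPM in X13, X16 and X74 in AP3, against 7.97, 3.02 and 3.58 CPM in X14, X26 and X71 in AG. The closest to AHL17 were PRS, a homeobox gene of organ margins (0.66), ABCG15 (0.81), AT5G03350 (0.84), BLH2, a homeobox gene of leaf shape (0.85), and AT1G02190 (0.95). PRS had 24.6, 17.0 and 16.8 CPM in X13, X16 and X74 in AP3, against 6.01, 2.39 and 3.26 CPM in X14, X26 and X71 in AG. AHL15 was number 24 in the order of likeness to AHL17, and AHL17 number 102 in that to AHL15 (distance 1.27). The distances rest on 6 libraries and on the same difference between domains, and describe these libraries.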
